A study of Mus musculus with 2 samples.

Results

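STAT5 peaks were counted at the genes of mouse CD antigens, the cell surface molecules that immunologists number to tell blood cell types apart. The genes were chosen by their symbol: every protein-coding gene of a RefSeq table whose symbol is Cd followed by digits and at most 2 more characters, without Cd74, Cd79a, Cd79b, Cd2ap, Cd2bp2 and Cd3eap. This gave 90 genes, of which 89 had a usable position among 21779 protein-coding genes in all. Cd99 was the exception, left out by the rule against listed starts under 3000000 on chromosomes other than Y, and it was not analysed here. A gene counted as having a peak if the midpoint of a STAT5 peak fell in the gene or no more than 20 kb beyond it. The rule uses symbols and positions and no peak value, but it was proposed with earlier results of these data known.

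The data came from 1 STAT5 chromatin immunoprecipitation (ChIP) library, which reads out the DNA that STAT5 was bound to, and 1 input library of sonicated chromatin that was not precipitated. Both were made from lymph node cells of a leukemic C57BL/6 mouse of the genotype Stat5b-CAxBlnk+/-, with a constitutively active Stat5b and 1 mutant copy of Blnk, and the labels give the cells as B cell progenitor leukemia. Per the labels' protocols, the suspended cells received 10 ng/mL IL7 for 30 minutes before they were fixed with 1% formaldehyde for 10 minutes and sheared to about 200 bp. There was no replicate, no unstimulated group and no group without the transgene, so no spread between animals and no effect of either could be measured. The deposited file lists positions of 5908 peaks and gives no depth, height or significance, so a gene without a peak is one where none passed a threshold that the sources used here do not state. It holds no expression level, and the labelled cell type could not be checked against its markers.

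STAT5 is a transcription factor that kinases of the JAK family activate below cytokine receptors. In B cell progenitors the receptor for IL7 is its main source of activation, and the factor supports survival and growth at that stage. CD antigens serve as receptors, coreceptors, adhesion molecules and regulators of complement. CD22 and CD72 are typical of B cells, CD3, CD4 and CD8 of T cells, and CD14, CD68 and the CD300 molecules of monocytes, macrophages and granulocytes.

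A STAT5 peak lay in or near 24 of the 89 CD antigen genes (27.0%, exact 95% interval 18.1 to 37.4). Among all protein-coding genes the share was 21.6%, which lies inside that interval. The share over all 89 was thus near the background. Without the Cd209 and Cd300 genes, 15 genes of families with no listed peak within 20 kb, it was 24 of 74 (32.4%, 22.0 to 44.3), an interval whose lower bound is just above 21.6%. The Cd209 and Cd300 genes were set aside after their counts were seen, which can only raise the share. The 24 genes with a peak included Cd2, Cd3d, Cd3e, Cd3g, Cd27 and Cd69 of the T lineage lists. From the B lineage lists came Cd22, Cd40, Cd1d1, Cd38 and Cd86, and from the myeloid lists Cd33 and Cd5l. Members of no lineage list with a peak were Cd9, Cd34, Cd44, Cd47, Cd48, Cd52, Cd53, Cd82, Cd164l2 and Cd248. Of the 24 genes, 16 had 1 peak, 4 had 2, 3 had 3 and Cd2 had 4. Genes with at least 3 peaks were 4 of the 89 members (4.49%), against 2.48% of all protein-coding genes, a difference of few genes that was not tested. The 4 include Cd164l2, whose peaks all had Map3k6 as nearest gene. Together the 24 genes were served by 35 distinct peaks.

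The lineages were compared through lists of textbook markers. The core lists held 7 B, 13 T and 21 myeloid antigens, and broader lists added 6, 6 and 8 genes that are less specific. Of the core B antigens, 3 of 7 had a peak (42.9%, exact 95% interval 9.90 to 81.6). Core T antigens had one in 4 of 13 cases (30.8%, 9.09 to 61.4). Myeloid antigens had one in 1 of 21 (4.76%, 0.120 to 23.8). At 20 kb the order of the shares was B, T, myeloid, but the 3 intervals overlapped and each held the background of 21.6%, so the lineages were not separated at these numbers of genes. The difference between lineages was not tested, because there is 1 peak list and the genes were chosen with earlier results known. The broader genes gave the same order, with 3 of 6 for B (11.8 to 88.2), 2 of 6 for T (4.33 to 77.7) and 1 of 8 for myeloid (0.316 to 52.7). These intervals also overlapped and each held 21.6%. The order of B and T depended on the counting rule: T had the higher share within 5 kb (14.3% for B, 15.4% for T), inside the gene (0 of 7 and 1 of 13) and in the wider of 2 equal parts of the peak list (28.6% and 30.8%). The backgrounds of these rules were 14.3%, 9.85% and 12.2%, and the lineage shares rest on few genes. The intervals cover counting error alone and count each gene as a separate draw, which neighbours with a shared peak are not.

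**Figure D1:**
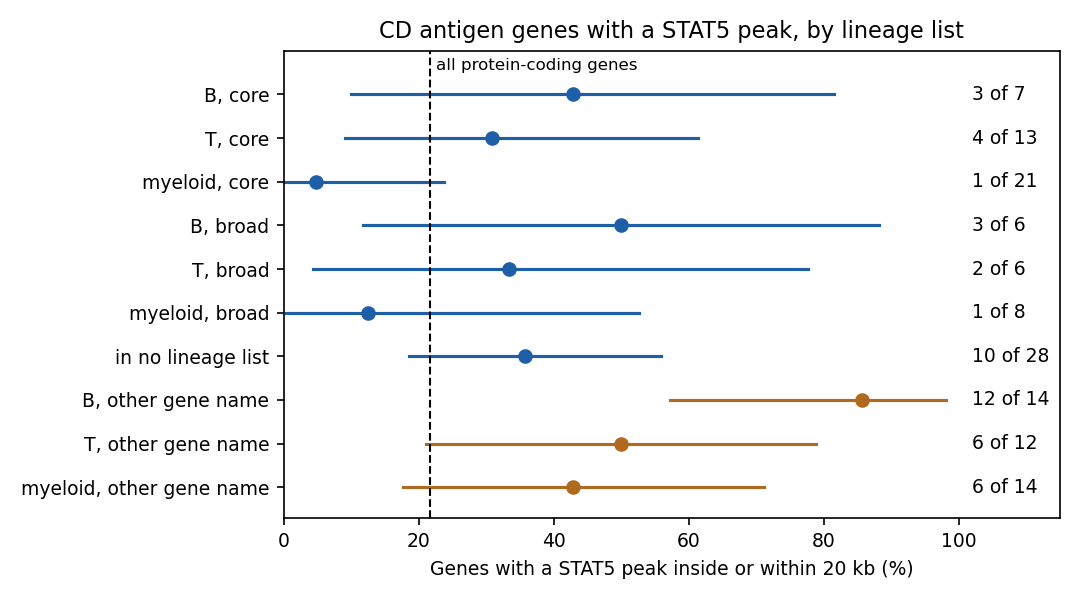
Share of CD antigen genes with a STAT5 peak inside or within 20 kb, in percent, for each lineage list (points) with exact 95% intervals (bars), and the share over all protein-coding genes (dashed line, 21.6%). Blue marks genes named Cd and a number, and brown marks CD antigens whose gene has another name. The interval of the latter B genes (12 of 14) lies wholly above the line. Several of them were in lists chosen with results of these data known, and genes that share peaks count separately, so this is not independent support.

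B antigens with a peak in the core list included Cd40 and Cd22, each with 1. Among core B antigens the peak nearest to its gene was that of Cd40, which encodes a receptor of the TNF family that receives T cell help (chromosome 2, gene from 165055614 to 165071654). It lay at 165054998 to 165055368, with its midpoint 431 bp outside the lower-coordinate end of Cd40, and no protein-coding gene was closer. Cd22, which encodes a sialic acid binding inhibitor of B cell receptor signals, had its peak 7287 bp outside the gene (chromosome 7, 30887448 to 30887811), and 8601 bp upstream of the start annotated in the promoter table. None of the 7 core B antigens had a peak inside the gene.

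The 4 core B antigens without a peak lay between 26.7 and 79.3 kb from their nearest one. Cd180, which encodes a Toll-like receptor relative, was 26693 bp away, and Cd72, an inhibitory coreceptor, was 38736 bp away. Cd24a, which encodes a small glycosylphosphatidylinositol-anchored protein of B cell progenitors, was 57343 bp away. Cd37, a tetraspanin gene of mature B cells, was 79297 bp away.

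In the broader B list, each of the 3 genes with a peak had one inside the gene. Cd38, which encodes an enzyme that breaks down NAD, had 3 peaks on chromosome 5: 1 inside the gene (43882143 to 43882373), and 2 upstream, 10214 and 12803 bp before its annotated start (43858424 to 43858767 and 43855877 to 43856135). The farther of the upstream peaks was 12538 bp from Bst1, a neighbour that encodes a related enzyme, and so nearer to Bst1 than to Cd38. Cd1d1, which encodes the molecule that shows lipids to natural killer T cells, had a peak inside (chromosome 3, 86998111 to 86998479), 2461 bp from its nearer end. Cd86, a ligand of CD28, had one inside, 19276 bp from its nearer end (chromosome 16, 36588121 to 36588344). Cd80, the other ligand of CD28, was 61997 bp from its nearest peak, Cd83, which encodes an activation marker, 95458 bp, and Cd81, which encodes a tetraspanin, 480904 bp.

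**Figure D2:**
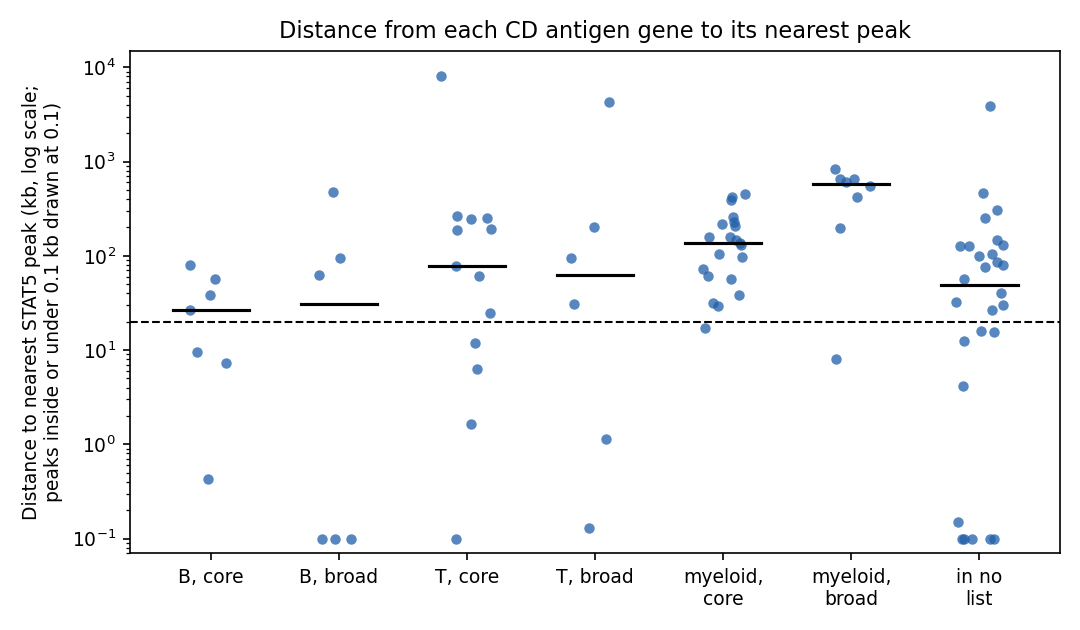
Distance from each of the 89 CD antigen genes to the midpoint of its nearest STAT5 peak, in kb on a log scale, by lineage list. Each point is a gene, bars are medians, the dashed line is the 20 kb limit, and genes with a peak inside are drawn at 0.1 kb; the medians were 26.7 kb for core B, 77.3 kb for core T and 136 kb for core myeloid genes.

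Among core T antigens the peaks fell at 2 places. Cd2, which encodes an adhesion receptor of T and natural killer cells that mouse B cells carry too, had 4 peaks, the most of all members (chromosome 3, gene from 101275908 to 101287939). One lay 2806 bp below the gene (101272962 to 101273243). The other 3 lay 1657, 3097 and 5011 bp above it (101289392 to 101289801, 101290738 to 101291334 and 101292738 to 101293162). The middle one of these was 597 bp wide, the widest of the 35 peaks. Cd2 was the nearest protein-coding gene for all 4 peaks, and none lay inside it. Genes with 4 or more peaks made up 1.12% of the members and 1.07% of all protein-coding genes, so the member share was near the background.

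Cd3g, Cd3d and Cd3e, which encode the signalling chains of the T cell receptor complex and lie side by side within 40.1 kb of chromosome 9, shared 1 peak (44986584 to 44986894). It lay inside Cd3d, 313 bp from its nearer end. It was 6308 bp from Cd3g and 11996 bp from Cd3e. Counted by locus, with the Cd3 genes as 1 and the neighbours Cd8a and Cd8b1 as 1, T antigens had a peak at 2 of 10 loci. The fourth chain gene of the complex, Cd247, had its nearest peak at 61849 bp.

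No other core T antigen reached the limit. Cd28, the costimulatory receptor gene, was closest, at 24640 bp. The coreceptor genes Cd4, Cd8b1 and Cd8a were 77305, 245916 and 254087 bp away. Cd7 was 188960 bp away, and the scavenger receptor family genes Cd5 and Cd6 were 193114 and 264346 bp away. Cd40lg, which encodes the ligand of CD40, lies on chromosome X and was 8085419 bp from a peak. Cd99l2, the other member on X, was 3889888 bp from one. Chromosome X held 44 peaks in all, and the part of this in these values was not tested.

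Cd69 and Cd27 were the broader T antigens with a peak. Cd69, which encodes an early activation marker that holds lymphocytes in tissues, had 2 peaks on chromosome 6. One had its midpoint 130 bp outside the higher-coordinate end of the gene, the nearest of any midpoint outside a member. That peak (129275310 to 129275700) ran across the gene end at 129275375. The midpoint of the other lay 9119 bp outside the gene (129284307 to 129284682). The peak counted for Cd27, a TNF receptor family gene, was 1148 bp outside that gene but inside its neighbour Tapbpl, 388 bp from an end. Cd96, Cd244a, Cd160 and Cd226, which encode receptors of T and natural killer cells, were 30819, 95779, 204386 and 4302573 bp from a peak.

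**Figure D3:**
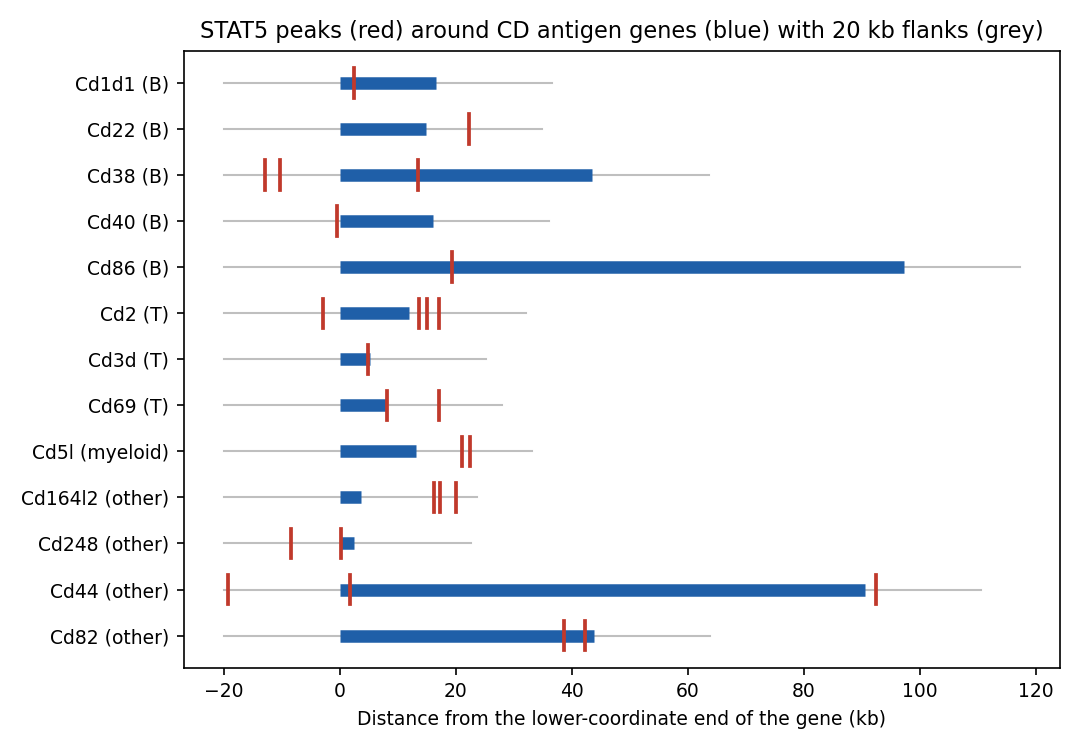
Positions of STAT5 peaks (red ticks) around 13 CD antigen genes (blue bars) with 20 kb on either side (grey lines), in kb from the lower-coordinate end of each gene: genes with 2 or more peaks, named B antigens with a peak, and Cd3d. Cd2 has 3 ticks just above the gene and 1 below it, and the ticks of Cd22, Cd5l and Cd164l2 lie outside the gene.

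Myeloid antigens had a single peak in the core list, near Cd33, which encodes a sialic acid binding receptor. It lay 17267 bp from Cd33 (chromosome 7, 43554550 to 43554833) and 7511 bp from Zfp658, the nearer gene. The core list is dominated by 2 clusters of related genes. The 7 genes from Cd209a to Cd209g, lectins of dendritic cells and macrophages, span 394 kb of chromosome 8, with nearest peaks at 31.5 to 422 kb. The 7 Cd300 genes of the list, receptors with activating or inhibitory tails, span 246 kb of chromosome 11, with nearest peaks at 29.2 to 146 kb. Without both clusters 1 of 7 core myeloid antigens had a peak (14.3%, exact 95% interval 0.361 to 57.9). Cd14, the endotoxin coreceptor gene, was 56466 bp from a peak, Cd177 61573 bp, Cd207 158610 bp, Cd302 217304 bp, Cd68 255649 bp and Cd163, a haemoglobin scavenger receptor gene, 450801 bp.

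The broader myeloid list added Cd5l with 2 peaks, at 7954 and 9263 bp from the gene (chromosome 3, 87378887 to 87379169 and 87380188 to 87380486). Cd5l encodes a secreted protein of macrophages. Both peaks lay inside its neighbour Fcrl1, which encodes a receptor of B cells. The 4 Cd200r genes were 555 to 656 kb from a peak. Cd101, Cd36 and Cd93 were 199467, 424521 and 839884 bp away. No myeloid antigen of either list was the nearest protein-coding gene of a peak within 20 kb.

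Of the 28 members in no lineage list, 10 had a peak (35.7%, exact 95% interval 18.6 to 55.9), an interval that holds the background of 21.6%. Cd44, which encodes the receptor for hyaluronan, had 3 on chromosome 2: 1 lay 1882 bp upstream of its annotated start (102903419 to 102903675), 1 inside the gene 1749 bp from the other end (102812772 to 102813009), and 1 at 19237 bp (102791781 to 102792027), which was 1120 bp from Slc1a2. Cd82, a tetraspanin gene, had 2 peaks, both inside (chromosome 2, 93461216 to 93461550 and 93457599 to 93457953), and the first was 468 bp downstream of 1 of its annotated starts. Cd248, which encodes a glycoprotein of stromal cells, had 1 peak inside the gene, 195 bp from an end (chromosome 19, 5068175 to 5068371), and 1 at 8437 bp that was nearer to Rin1 (5059473 to 5059810). The 3 peaks counted for Cd164l2, on chromosome 4 (133236968 to 133237282, 133238021 to 133238240 and 133240735 to 133240988), lay inside or 854 bp from Map3k6, a kinase gene, and 12571, 13576 and 16307 bp from Cd164l2 itself.

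Cd48, a ligand of CD244, had 1 peak (chromosome 1, 171680893 to 171681298), with its midpoint 150 bp outside the gene and 897 bp upstream of its annotated start. The peak itself ran across the lower-coordinate end of the gene, at 171681245. Cd47, which encodes the surface signal that restrains phagocytes, had 1 peak, inside the gene, and Cd9, Cd34, Cd52 and Cd53 had 1 each. By family, 3 of 7 tetraspanin genes had a peak (Cd9, Cd53 and Cd82, exact 95% interval 9.90 to 81.6%). In the CD2 family it was 2 of 4 genes (Cd2 and Cd48, 6.76 to 93.2%). Shares were higher for the sialic acid binding receptors Cd22 and Cd33 (2 of 2, 15.8 to 100%). They were also higher for the T cell receptor complex (3 of 4, 19.4 to 99.4%, with 1 shared peak). Each of these intervals held the background of 21.6%. No peak was counted for 5 complement regulator genes, 3 T cell coreceptor genes, 8 Cd300 genes or 5 genes for CD200 and its receptors. A count of 0 among 5 genes has an exact 95% interval of 0 to 52.2%, so these families are too small to be told apart from the background.

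The rule credits a peak to every gene within 20 kb. By midpoint, 10 of the 35 peaks lay inside a member, 5 inside another protein-coding gene and 20 inside none. A member was the nearest protein-coding gene for 23 of the 35, and another gene for the other 12. Nearness left 16 of 89 members with a peak (18.0%), against 14.0% of all protein-coding genes by the same rule. Among the members it removed were Cd27, Cd33, Cd52, Cd164l2, Cd5l, Cd3e and Cd3g. The 35 peaks had a median width of 299 bp (range 197 to 597), against 295 bp over the whole list. By place in the file, an order whose key is unknown, 17 of the 35 belonged to the first 2954. Members just inside the limit were Cd34, Cd9 and Cd33, at 15430, 16068 and 17267 bp, and those just outside it were Cd28, Cd180 and Cd109, at 24640, 26693 and 26898 bp.

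Longer genes offer a wider window, so the counts were also read by length. Of members up to 8.80 kb long, 7 of 27 had a peak (25.9%, exact 95% interval 11.1 to 46.3), against 13.1% of all such genes. Between 8.80 and 31.3 kb it was 11 of 39 (28.2%, 15.0 to 44.9), against 22.7%. Above 31.3 kb it was 6 of 23 (26.1%, 10.2 to 48.4), against 29.2%. Each interval held the background of its class. The median length was 7.38 kb for core B, 12.0 kb for core T and 7.54 kb for core myeloid antigens, so core myeloid genes were about as short as core B genes. The part of length in the lineage counts was not tested. The median distance to a peak was 79.3 kb for members and 118 kb over the 21523 protein-coding genes on chromosomes with a peak. In all, 39 members were over 100 kb from a peak.

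The flank set how many genes were counted. Peak midpoints lay inside 9 of 89 members (10.1%), against 9.85% of protein-coding genes. Within 5 kb it was 15 (16.9%), against 14.3%, and within 50 kb 35 (39.3%), against 33.0%. At 5 kb the core counts were 1 of 7 for B, 2 of 13 for T and 0 of 21 for myeloid antigens. At 50 kb they were 5 of 7, 5 of 13 and 4 of 21, with Cd180 and Cd72 added among B antigens. The backgrounds of the other counting rules were 21.7% for any overlap of 1 bp, 12.2% for the first 2954 peaks, 12.2% for the wider of 2 equal parts of the list, 21.6% with peaks closer than 5 kb joined, and 14.0% for the nearest gene alone.

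CD antigens whose genes have other names were counted in the same way, from a list of 14 B, 12 T and 14 myeloid genes that includes Cd74, Cd79a and Cd79b. Of the B genes, 12 of 14 had a peak (85.7%, exact 95% interval 57.2 to 98.2), an interval that lies above the background of 21.6%. Bst1 had 4, Vpreb1 and Igll1, which encode the surrogate light chain and share peaks, 3 each, and Cxcr5, Tnfrsf13b and Cd74 2 each. Mme, which encodes the neutral endopeptidase CD10, and Spn, which encodes CD43, had none, with nearest peaks at 2282371 and 96106 bp. T genes had one in 6 of 12 cases (interval 21.1 to 78.9), led by Il2ra with 6, and myeloid genes in 6 of 14 (42.9%, 17.7 to 71.1). The B genes with other names and the core B genes named Cd and a number (3 of 7, interval 9.90 to 81.6) had intervals that overlapped, and their difference was not tested. Several of these genes were in lists chosen with results of these data known, so their counts are not independent support.

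The promoter table of RefSeq (GRCm38.p6, 250 bases before to 50 after an annotated start) held 74 entries for 66 of the 89 members. No peak overlapped any of these windows (0 of 74, exact 95% interval up to 4.86%), and over all protein-coding genes a peak overlapped 624 of 21263 windows (2.93%), a share inside that interval. The 23 members without an entry are not covered by this count. They include Cd40 and Cd69, with peak midpoints 431 and 130 bp from a gene end. For Cd48 the midpoint lay 150 bp from a gene end but 897 bp from the annotated start. The nearest midpoints to an annotated start were those of Cd82 (468 bp), Cd47 (727 bp) and Cd48 (897 bp). Of the 24 pairs of a gene and a peak with an annotated start, 8 lay upstream of the nearest start and 16 downstream. The downstream side takes in the gene itself, and the split was not counted over all genes. The shared Cd3 peak enters once for each of Cd3d, Cd3e and Cd3g. The windows were searched for TTCNNNGAA, the letters of the STAT motif, in which N is any base and which reads alike on both strands. It was found in 5 of 74 member windows (6.76%) and in 1636 of 21263 windows of protein-coding genes (7.69%). Among members it occurred in 2 of 20 windows of genes with a peak and 3 of 54 windows of genes without one. A match is a description of the letters and not a bound site.

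The 4 matches that lay before the start are shown to let the letters be set beside the peaks, 5′ to 3′ on the strand of the gene with the motif in capitals. The first begins 197 bases before a start of Cd3d (chr9:44981579-44981607, plus strand), a gene with a peak 4953 bp downstream of that start. The others belong to genes with no peak within 20 kb: Cd96 (chr16:46120309-46120337, minus strand), Cd160 (chr3:96814737-96814765, minus strand) and Cd300e (chr11:115062205-115062233, minus strand). The fifth match lay at an alternative start of Cd82.
Cd3d: tcccttacacTTCCTAGAAttctgaacaa
Cd96: ggcgcaaggtTTCAGAGAAcagtttccac
Cd160: tttctcagtcTTCTTTGAAccttagtgca
Cd300e: gctccgttcaTTCTCTGAAgcgattctca
The 4 sequences share the outer letters of the motif and differ in its middle, and 3 of them lie at genes without a listed peak.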

How the data were processed

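The deposited file is a BED list of 5908 peaks on mm10 with a start, an end and a name; the deposited numbers are positions in bp. Per the submitters' processing notes, the tools were MACS2, Picard and BWA 0.7.4 and the build was mm10, with no roles stated. The sources used here do not state how peaks were called and filtered, whether the input served as control, or the read depth. Gene positions came from the RefSeq table of GRCm38.p6 (the assembly behind mm10). Genes with a start under 3000000 on a chromosome other than Y, and genes off the assembled nuclear chromosomes, were left out, and 5901 peaks entered the counts. Positions are printed from 1, and distances are those of peak midpoints. A peak midpoint inside a gene or within 20 kb counted for it. Shares carry exact Clopper-Pearson 95% intervals (scipy 1.17.1, Python 3.11.15). No test was run, since 1 library gives no spread between samples. The assignment of peaks to genes was tested on simulated data. The members and the lineage lists were chosen with earlier results of these data known. Every lineage antigen with a peak was named, as was every other member with 2 or more, except 1 gene that is counted but not reported here. Strand and start sites came from the RefSeq promoter table. It has no entry for 23 members, among them Cd2, Cd40, Cd69 and Cd86. Alternatives were 0, 5 and 50 kb flanks, any overlap, parts of the list, joined peaks, nearest genes, broader lists and loci.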

Additional observations from a re-analysis of the deposited data

Results flagged for a closer look

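Outside the assembled chromosomes there were 7 peaks. They entered no count, and 1 of them lay on an unplaced sequence assigned to chromosome 4, the chromosome that the gene table gives for Cd99. The table lists a start under 3000000 for Cd99, and whether its position refers to such a sequence was not determined.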

How the results depend on the processing

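The 24 members with a peak became 15 at 5 kb, 9 inside the gene and 14 in the first 2954 peaks, and the 35 distinct peaks became 19, 10 and 17; at 50 kb there were 64 peaks. In the wider part of the list there were 18 peaks, and by nearest gene 23. The 3 core B antigens became 1 at 5 kb, 0 inside the gene, 1 in the first 2954 peaks, 5 at 50 kb and 6 of 13 with the broad list. The 4 core T antigens became 2 at 5 kb, 1 inside the gene, 1 in the first 2954 peaks, 2 by nearest gene and 2 by locus. The 1 core myeloid antigen became 0 at 5 kb, inside the gene, in the wider part of the list and by nearest gene, 4 at 50 kb and 2 of 29 with the broad list. In the wider part of the list the core counts were 2 of 7 for B and 4 of 13 for T. The count without the Cd209 and Cd300 genes, 24 of 74, was chosen after seeing the data. The other counts stayed within 1.5 times, among them all those with any overlap or joined peaks. In the first 2954 peaks B and T antigens had equal counts, 1 of 7 and 1 of 13. Of the 18 named genes with a separate count, 8 stayed within 1.5 times at 5 kb and 7 had no peak left, and 13 stayed within 1.5 times at 50 kb. The causes of these moves were not tested beyond the width of the window itself. No paired analysis was possible because there is 1 ChIP library. No replicate could be left out. Unknown depth sets what could be listed as a peak.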
